A study of Mus musculus with 6 samples.

Results

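The genes of the cytotoxic granule examined here encode granzymes A, B, K and M (Gzma, Gzmb, Gzmk, Gzmm), perforin (Prf1), the granule membrane proteins Nkg7 and Lamp1, and the granule matrix proteoglycan serglycin (Srgn). They were chosen by gene symbol, with earlier results of these data known, and 8 of 8 were found once each among the 49315 genes of the deposited counts. The study sequenced RNA of total CD8+ T cells sorted from the tumor-draining lymph nodes of wild-type female C57BL/6J mice that carried B16F10, a transplantable mouse melanoma (the sample labels write B26F10). The monotherapy group (n = 3 mice) had received a single dose of HCW9218 under the skin, and the combination group (n = 3 mice) the same dose with anti-PD1, an antibody against the inhibitory receptor PD1, into the peritoneum. Treatment was given when tumors measured 50 to 100 mm3, and cells were taken on day 5. Both groups carried the tumor and had received HCW9218, which by the series title is an immunotherapeutic complex of TGF-βRII and IL-15. Values are therefore relative to HCW9218 alone, and no untreated group was analysed here. The ages of the mice are not given in the labels.

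Killer lymphocytes store granzymes and perforin in secretory lysosomes. On contact with a target cell these granules fuse with the plasma membrane, perforin opens pores in the target, and granzymes, which are serine proteases, enter its cytosol and start cell death. Serglycin carries negatively charged sugar chains that hold granzymes and perforin inside the granule, Nkg7 takes part in granule release, and Lamp1 lines the granule and appears at the cell surface after release. IL-15 is known as an inducer of granzymes and perforin in CD8+ T cells, and resting naive CD8+ T cells carry little granzyme mRNA.

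Libraries held 34568074 to 40101346 counts. The markers of the sorted cells were present, with the 9 CD8 T cell markers summing to 6730 to 8150 counts per 1000000 (CPM) in monotherapy and 6110 to 8410 CPM in the combination, and 0 of 9 passed the test in edgeR, DESeq2 or limma-voom (0 at an unadjusted p under 0.05). CPM values are scaled by TMM factors, which correct for library composition. Shorter genes were relatively low in combination replicate 3 and high in combination replicate 1. Genes with under 1500 counted bases had a median deviation from their group mean of -0.19 and 0.23 log2 CPM in these libraries, against 0.10 and -0.10 for genes over 4000 bases. Of 5 melanocyte markers, 4 were highest in combination replicates 2 and 3, where Tyrp1 lay at 7.41 and 9.48 CPM, Dct at 7.94 and 9.77 CPM, Tyr at 1.03 and 1.74 CPM and Mlana at 0.554 and 1.09 CPM. In the other 4 libraries Dct had 0 counts, Tyrp1 and Tyr 0 or 1, and Mlana 0 except for 6 in monotherapy replicate 3. The fifth, Pmel, was counted in all 6 libraries at 20.9 to 29.9 CPM.

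Adding anti-PD1 went with higher mRNA of 3 granzymes. Gzmm, Gzmb and Gzma rose 4.32-fold, 3.08-fold and 2.86-fold. The fourth granzyme, Gzmk, did not pass the test, and neither did Prf1, Nkg7, Srgn or Lamp1. In edgeR's quasi-likelihood test over 15142 genes, 3 of 8 granule genes were higher at a Benjamini-Hochberg adjusted p under 0.05, where 0.951% of all genes tested were higher. None of the 8 was lower, where 0.132% of all genes were lower; 0 had a fold change below 0 at an unadjusted p under 0.05, and 0 were lower in DESeq2 or limma-voom, where 0.476% and 0.0925% of all genes were lower. DESeq2 and limma-voom each called 3 of the 8 higher, against 1.86% and 0.819% of all genes. As the 8 were chosen with earlier results of these data known, the shares over all genes are given for scale only. All 8 passed the filter on low counts. Gene coordinates are those of the deposited files, which follow GRCm38. The log2 fold changes of all 8 lay above 0, with a median of 0.47, against 7549 genes above 0 and a median of 0.00 over all genes tested. In 3 of 8 genes every combination library lay above every monotherapy library, which held for 7.17% of all genes, and in 0 of 8 every combination library lay below, which held for 7.54%. More cells that express a gene and more RNA per cell cannot be told apart in bulk RNA of a sorted population.

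**Figure D1:**
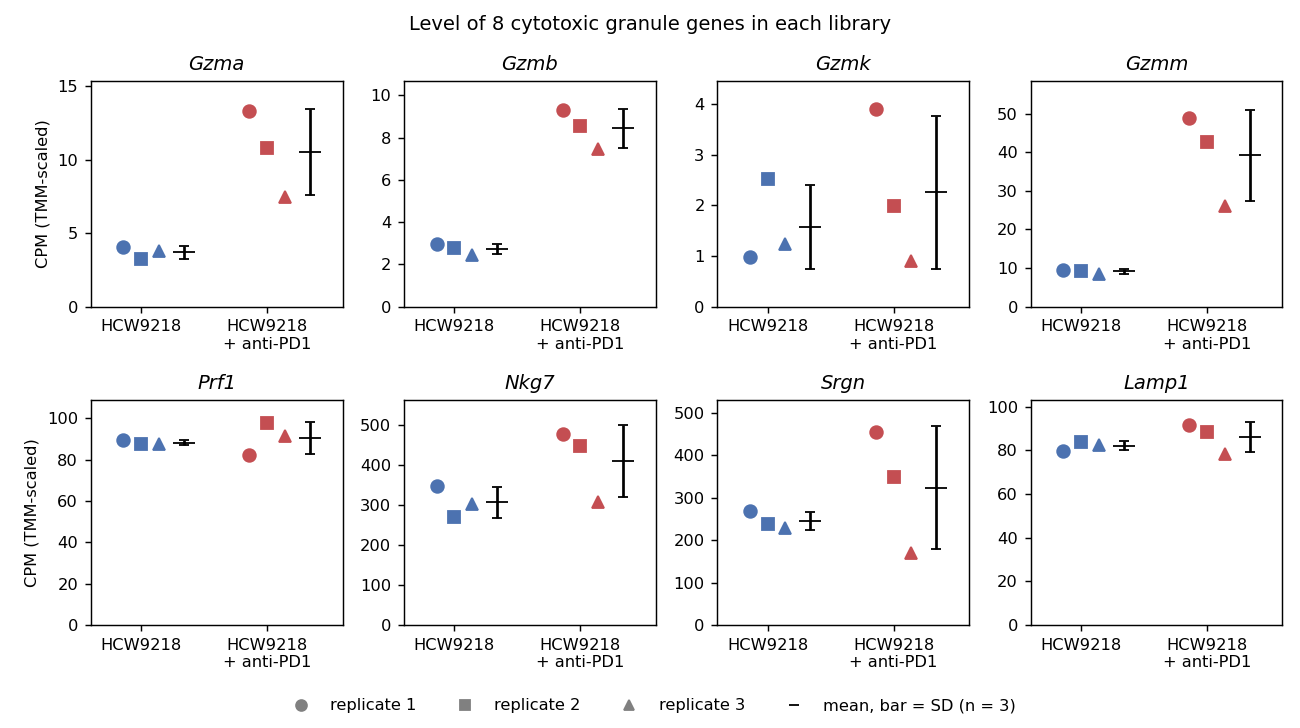
TMM-scaled CPM of the 8 granule genes (vertical axes, each from 0) in the 3 HCW9218 and 3 HCW9218 + anti-PD1 libraries. Points are libraries, marker shape gives the replicate number, which is not taken to pair the groups, and black bars are the mean and SD. The groups are apart for Gzma, Gzmb and Gzmm and overlap for the other 5 genes.

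The 250 bases upstream of the RefSeq start site (GRCm38.p6) are shown for the 3 granzymes that rose and for Prf1, which did not pass, since these 4 products are delivered together. They are written 5′ to 3′ on the strand of the gene, with matches to 4 motif letters in capitals on either strand: GGTGTG (T-box), TGTGGT (RUNX), TGANTCA (AP-1) and TTCNNNGAA (STAT). No 2 matches overlap in these 4 windows.
Gzma, chr13:113100982-113101231, minus strand: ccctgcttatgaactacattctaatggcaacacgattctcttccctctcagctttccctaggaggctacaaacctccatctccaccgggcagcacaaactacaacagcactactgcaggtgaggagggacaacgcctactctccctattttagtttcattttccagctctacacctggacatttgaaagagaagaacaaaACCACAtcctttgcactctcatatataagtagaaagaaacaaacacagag
Gzmb, chr14:56262335-56262584, minus strand: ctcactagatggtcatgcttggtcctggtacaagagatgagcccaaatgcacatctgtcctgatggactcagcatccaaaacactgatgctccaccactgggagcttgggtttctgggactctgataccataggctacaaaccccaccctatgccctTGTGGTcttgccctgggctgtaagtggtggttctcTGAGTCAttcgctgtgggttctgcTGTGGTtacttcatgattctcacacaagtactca
Gzmm, chr10:79688770-79689019, plus strand: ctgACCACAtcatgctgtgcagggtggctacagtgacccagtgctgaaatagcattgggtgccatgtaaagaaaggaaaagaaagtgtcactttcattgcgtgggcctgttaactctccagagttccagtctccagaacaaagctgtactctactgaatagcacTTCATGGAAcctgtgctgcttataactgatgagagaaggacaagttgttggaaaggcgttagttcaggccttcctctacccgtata
Prf1, chr10:61297586-61297835, plus strand: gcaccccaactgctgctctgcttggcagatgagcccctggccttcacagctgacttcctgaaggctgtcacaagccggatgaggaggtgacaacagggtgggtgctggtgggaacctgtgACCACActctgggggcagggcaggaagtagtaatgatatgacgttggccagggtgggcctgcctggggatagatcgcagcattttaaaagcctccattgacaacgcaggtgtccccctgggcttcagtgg

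In these windows the RUNX letters matched 1 time in Gzma, 2 times in Gzmb, 1 time in Gzmm and 1 time in Prf1, so that a RUNX match did not separate the genes that rose from Prf1. Among 32851 RefSeq promoter windows of the same length, 14% held a RUNX match. The AP-1 letters TGAGTCA lay 58 to 52 bases upstream of the Gzmb start, and 6.75% of all windows held such a match. A STAT match, TTCATGGAA, lay 86 to 78 bases upstream of the Gzmm start, and 7.02% of all windows held such a match. Among the windows not shown, that of Nkg7, which did not pass, also held a STAT match, TTCCAGGAA, 220 to 212 bases upstream. RUNX matches lay in the windows of Nkg7 and Lamp1 too, and neither gene passed. The T-box letters were in none of the 4 windows shown, though they were in those of Gzmk and Nkg7, and in 16.3% of all windows. A match is a description of letters and not of binding, which was not measured.

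Gzmm, which encodes granzyme M, a protease that cuts after methionine and leucine and is known mostly from natural killer cells, had the largest fold change of the 8. It (ENSMUSG00000054206) is annotated at chr10:79689020-79695261 on the plus strand, with 1472 counted bases of exon. Its CPM were 9.58, 9.32 and 8.40 in monotherapy replicates 1, 2 and 3, and 49.0, 42.7 and 26.1 in combination replicates 1, 2 and 3. The groups did not overlap, and the combination libraries were the more spread, with replicate 3 the lowest. The log2 fold change was 2.11 ± 0.22 (SE; edgeR adjusted p = 0.00364), with a 95% interval of 1.61 to 2.61. Leaving out any single library gave 1.94 to 2.33, and the adjusted p in edgeR stayed at or below 0.0369.

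Gzmb encodes granzyme B, the protease that cuts after aspartate and activates caspases in the target cell. It (ENSMUSG00000015437) is annotated at chr14:56258856-56262260 on the minus strand. Monotherapy replicates 1, 2 and 3 had 2.95, 2.79 and 2.46 CPM, from 106, 110 and 102 counts, and combination replicates 1, 2 and 3 had 9.30, 8.55 and 7.46 CPM, from 306, 324 and 288 counts. Both groups were tight, with coefficients of variation of 9.17% and 11.0%, and did not overlap. The highest monotherapy library had an exact 95% Poisson interval of 2.42 to 3.57 CPM and the lowest combination library of 6.62 to 8.37 CPM, which cover counting error only. The log2 fold change was 1.62 ± 0.19 (SE; edgeR adjusted p = 0.00505), and it was 1.55 to 1.71 when any single library was left out, with an adjusted p at or below 0.0470. Gzmb thus rose from a low level, and ranked seventh of the 8 genes per length in both groups.

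Gzma encodes granzyme A, a tryptase that cuts after arginine and lysine. It (ENSMUSG00000023132) is annotated at chr13:113093825-113100979 on the minus strand. Its CPM were 4.07, 3.23 and 3.76 in monotherapy replicates 1, 2 and 3, and 13.3, 10.8 and 7.46 in combination replicates 1, 2 and 3. The groups did not overlap, and combination replicate 3 was again the lowest of its group. Gzma had a log2 fold change of 1.51 ± 0.24 (SE; edgeR adjusted p = 0.0173). The call was lost without monotherapy replicates 1, 2 and 3 (edgeR adjusted p = 0.0928, 0.107 and 0.104) and without combination replicate 2 (edgeR adjusted p = 0.0758), though the log2 fold change then stayed between 1.43 and 1.6.

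Gzmk, a granzyme with tryptase activity that marks memory-like CD8+ T cells, lies 70.6 kb from Gzma on chromosome 13 and varied most among the 8 genes. Its CPM were 0.975, 2.52 and 1.23 in monotherapy replicates 1, 2 and 3, and 3.89, 1.98 and 0.907 in combination replicates 1, 2 and 3. The highest library and the lowest were both in the combination, and the groups overlapped. The coefficient of variation was 52.5% in monotherapy and 66.9% in the combination, beyond counting error: combination replicate 1 had an exact 95% Poisson interval of 3.24 to 4.62 CPM and combination replicate 3 of 0.631 to 1.26 CPM. The log2 fold change was 0.51 ± 0.53 (SE; edgeR adjusted p = 0.935), and its 95% interval of -0.68 to 1.70 holds 0 as well as the estimates of Gzma and Gzmb. Without monotherapy replicate 2 it was 1.02, and without combination replicate 1 it was -0.11. The deposited gene model of Gzmk (ENSMUSG00000042385), chr13:113171608-113225908 on the minus strand, begins 44943 bases upstream of the RefSeq start and overlaps Esm1 on the other strand. The strand setting was not stated. The GENCODE M21 transcripts of Gzmk shared no 50-base stretch with those of Esm1 on either strand, and Esm1 itself had 1 to 22 counts per library.

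The remaining granzyme genes were at or near 0. These are Gzmc, Gzmd, Gzme, Gzmf, Gzmg and Gzmn, which lie beside Gzmb in the same gene cluster and are known from strongly stimulated killer cells. Gzmc had 4, 6 and 24 counts in monotherapy replicates 1, 2 and 3, and 2, 8 and 7 in combination replicates 1, 2 and 3. Gzmd and Gzmf had 3 and 2 counts in combination replicate 2 and 0 in the other 5 libraries, and Gzme, Gzmg and Gzmn had 0 in all 6. At a one-sided 95% limit, a count of 0 allows up to 3 counts, or 0.0724 to 0.0912 CPM depending on the library. None of these 6 genes passed the count filter, so that none was tested.

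Prf1 encodes the pore-forming protein that lets granzymes into the target cell. It (ENSMUSG00000037202) is annotated at chr10:61297836-61304263 on the plus strand. Its CPM were 89.5, 87.4 and 87.7 in monotherapy replicates 1, 2 and 3, and 82.2, 97.9 and 91.5 in combination replicates 1, 2 and 3. The combination libraries lay on both sides of the monotherapy libraries. For Prf1 the log2 fold change was 0.04 ± 0.12 (SE; edgeR adjusted p = 0.985), with a 95% interval of -0.24 to 0.31, or 0.849-fold to 1.24-fold.

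Nkg7 was the most abundant of the 8 genes. It (ENSMUSG00000004612) is annotated at chr7:43437073-43438249 on the plus strand and has 914 counted bases of exon. Monotherapy replicates 1, 2 and 3 had 348, 271 and 303 CPM, and combination replicates 1, 2 and 3 had 478, 448 and 309 CPM. Combination replicates 1 and 2 lay above all monotherapy libraries and replicate 3 within their range. The log2 fold change was 0.42 ± 0.19 (SE; edgeR adjusted p = 0.637), with a 95% interval of -0.01 to 0.86. In TPM, which scale reads per base of gene length to the same sum in every library, the groups were apart, at 863 to 996 TPM in monotherapy and 1150 to 1320 TPM in the combination.

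Srgn, whose proteoglycan is also made by many other blood cells, split the combination group most among the abundant genes. It (ENSMUSG00000020077) is annotated at chr10:62493833-62527451 on the minus strand. Monotherapy replicates 1, 2 and 3 had 269, 237 and 229 CPM, and combination replicates 1, 2 and 3 had 454, 348 and 169 CPM. Combination replicates 1 and 2 lay above all monotherapy libraries and replicate 3 below all of them. The log2 fold change was 0.40 ± 0.30 (SE; edgeR adjusted p = 0.883). Single libraries decided this value: it was 0.09 ± 0.25 without combination replicate 1 (SE; edgeR adjusted p = 0.959), and 0.71 ± 0.15 without combination replicate 3, where it passed (SE; edgeR adjusted p = 0.0400).

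Lamp1, a protein of the lysosomal membrane in most cell types (ENSMUSG00000031447), is annotated at chr8:13159161-13175338 on the plus strand. Its CPM were 79.9, 84.1 and 82.4 in monotherapy replicates 1, 2 and 3, and 91.9, 88.4 and 78.5 in combination replicates 1, 2 and 3. The groups overlapped, and the log2 fold change was 0.07 ± 0.12 (SE; edgeR adjusted p = 0.970), with a 95% interval of -0.20 to 0.34. Lamp1 overlaps Grtp1 on the other strand, and 5.90% of the 50-base stretches of its GENCODE M21 transcripts also occur in those of Grtp1. Grtp1 had 3 to 33 counts per library against 2868 to 3414 for Lamp1. The other 7 genes shared no 50-base stretch with transcripts of another gene, the neighbouring granzymes included.

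**Figure D2:**
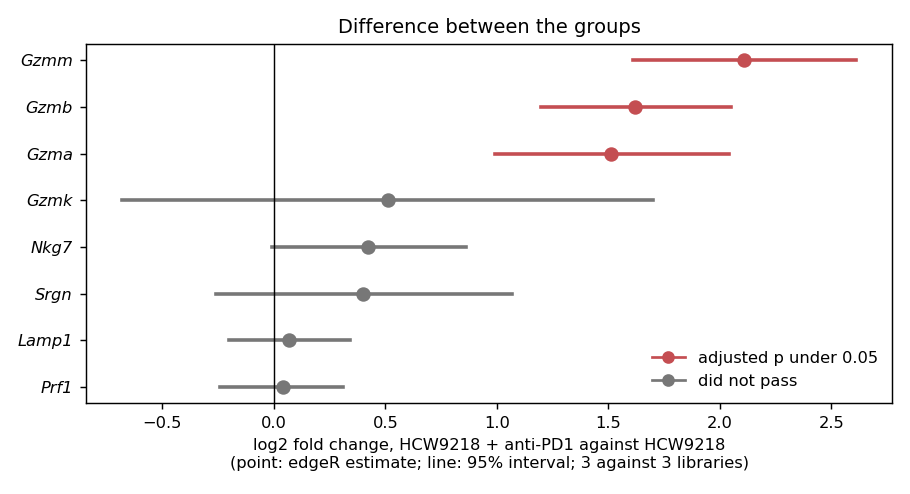
Log2 fold change of the combination against monotherapy (horizontal axis) for each granule gene, with edgeR's estimate as a point and its 95% interval as a line. The intervals of Gzmm, Gzmb and Gzma begin at 1.61, 1.20 and 0.99, and those of the other 5 genes include 0.

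In TMM-scaled CPM combination replicate 3 was the lowest of its group in 7 of 8 genes, all but Prf1, but it was the lowest in 5 by library totals and in 4 by TPM. Gzma, Gzmk, Gzmm and Srgn were lowest there on all 3 scales, while Gzmb and Lamp1 were lowest there only in TMM-scaled CPM. Its deviations from the group mean were -0.82 TMM-scaled log2 CPM in Srgn, -0.54 in Gzmm, -0.46 in Gzma and -0.39 in Nkg7, but -0.17 in Gzmb and -0.13 in Lamp1. The same library was low over all short genes, by the median of -0.19 given above, and was among those with Dct and Tyrp1. In this library Gzmk, with 1389 counted bases, deviated by -1.04, and Srgn, with 2196, by -0.82. Gzma, with 878, and Nkg7, with 914, deviated by -0.46 and -0.39. The part of gene length in these deviations was not tested. When an offset removed the trend of each library with gene length, Gzmm, Gzmb and Gzma passed (edgeR adjusted p = 0.00170, 0.00333 and 0.00674) and the other 5 did not. Without combination replicates 2 and 3, both with Dct and Tyrp1, Gzmm, Gzmb and Gzma had log2 fold changes of 2.42, 1.76 and 1.85, in a fit where the lone combination library is assumed to vary like the others.

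**Figure D3:**
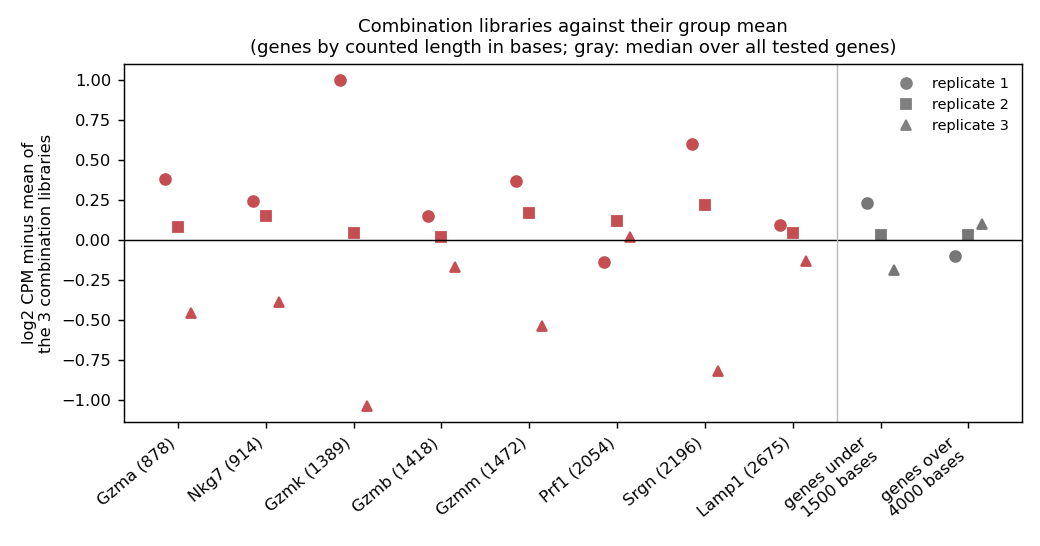
TMM-scaled log2 CPM of each combination library minus the mean of the 3 combination libraries (vertical axis), for the granule genes in order of counted length in bases (red) and as the median over all tested genes under 1500 and over 4000 bases (gray). Replicate 3 (triangles) is lowest in 7 of 8 granule genes, from -0.13 in Lamp1 to -1.04 in Gzmk, on this scale, against 5 of 8 by library totals and 4 of 8 by TPM.

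Levels were compared between genes in TPM, computed from the deposited counts and gene lengths. In monotherapy the order from high to low was Nkg7 at 948 ± 74.2, Srgn at 315 ± 5.49, Prf1 at 122 ± 6.77, Lamp1 at 87.1 ± 7.74, Gzmm at 17.5 ± 0.832, Gzma at 11.9 ± 1.05, Gzmb at 5.45 ± 0.288 and Gzmk at 3.25 ± 1.80 TPM (SD, n = 3). Every gene was apart from the next in all libraries except Gzmb and Gzmk, whose ranges overlapped. The combination kept this order. There Gzmm was at 71.4 ± 7.83 TPM, and its range of 62.7 to 77.9 TPM overlapped that of Lamp1, at 89.5 ± 14.1 TPM, and the ranges of Prf1 and Lamp1 also overlapped. Gzmm, well below Lamp1 in every monotherapy library, thus came within its range.

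**Figure D4:**
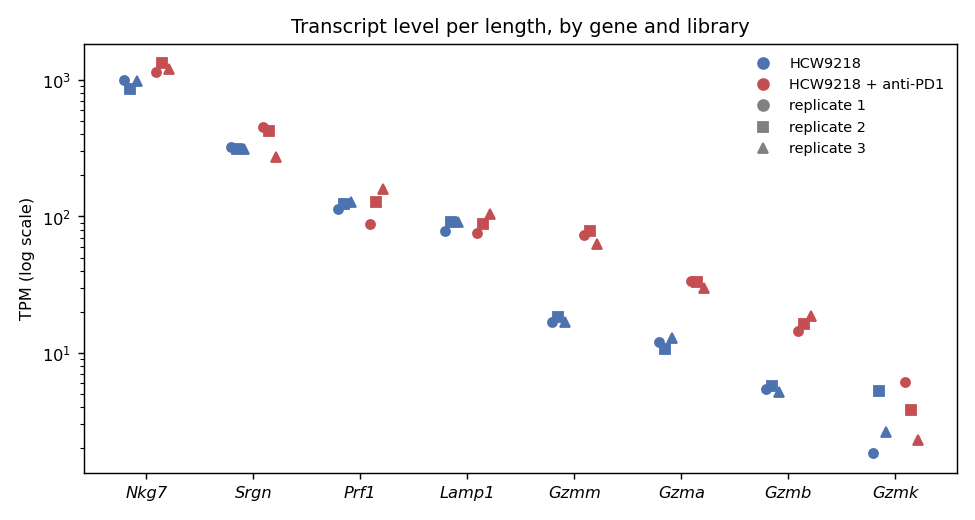
TPM on a log scale (vertical axis) of each granule gene, in order of the monotherapy mean, with 1 point per library. Nkg7 and Srgn lie highest in both groups, and Gzmm, Gzma and Gzmb are higher in the combination while the order of the genes is the same.

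The 4 granzymes together came to 36.5, 40.2 and 37.5 TPM in monotherapy replicates 1, 2 and 3, and to 128, 131 and 114 TPM in combination replicates 1, 2 and 3. Gzmm made up 45.2% to 46.7% of this sum in monotherapy and 55.1% to 59.5% in the combination. Gzmb made up 13.8% to 15.0% and 11.3% to 16.4%, so that its share overlapped between the groups. Of all 8 genes, Nkg7 alone held 60.2% to 64.4% of the TPM in monotherapy and 60.7% to 64.9% in the combination.

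Ratios of reads per kilobase within a library need no scaling between libraries and set granzymes against perforin directly. For each read per kilobase of Prf1 there were 0.0480, 0.0465 and 0.0409 of Gzmb in monotherapy replicates 1, 2 and 3, and 0.164, 0.127 and 0.118 in combination replicates 1, 2 and 3. The ratio was 3.00-fold higher in the combination, and the groups did not overlap. Gzmm to Prf1 went from 0.150, 0.149 and 0.134 to 0.833, 0.609 and 0.397, a 4.07-fold higher ratio without overlap. Gzma to Gzmk was 6.53, 2.03 and 4.81 in monotherapy and 5.41, 8.60 and 12.9 in the combination, and overlapped. Exact two-sided permutation tests gave p = 0.1, 0.1 and 0.2, and adjusted over the 3 ratios p = 0.15, 0.15 and 0.2. With 3 libraries against 3 the smallest p that permutations can give is 0.1, so that no ratio could pass.

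**Figure D5:**
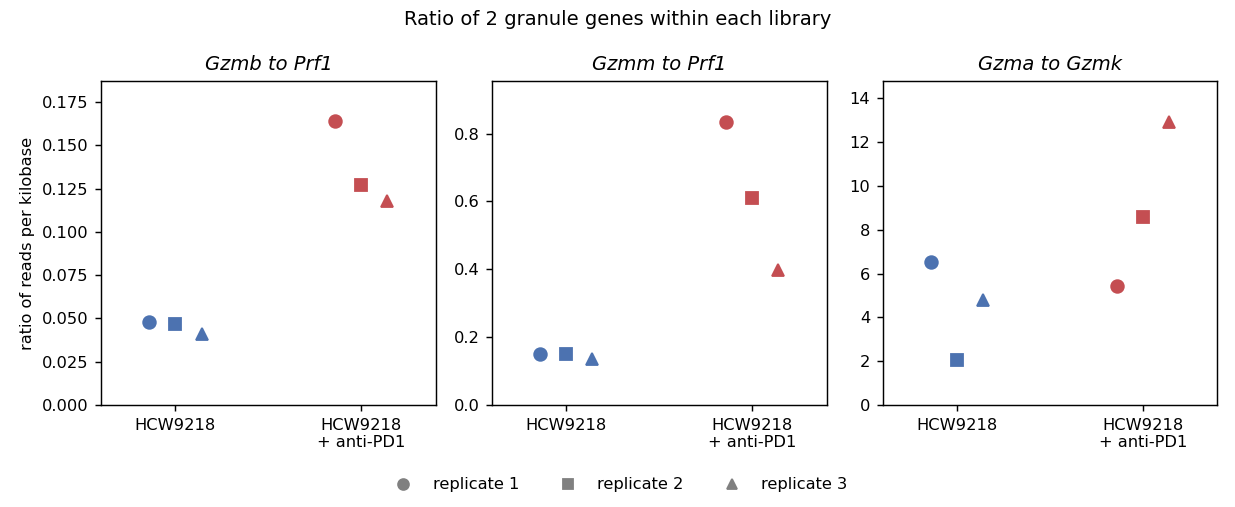
Ratio of reads per kilobase of 2 granule genes within each library (vertical axes, from 0), by group. The Gzmb to Prf1 and Gzmm to Prf1 ratios of the combination libraries all lie above those of monotherapy, from 0.118 and 0.397 upward, and the Gzma to Gzmk ratios overlap.

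Of 70 listed genes that work with the granule proteins 61 were tested. In edgeR 3 were higher (Chsy1, Serpinb6b and Tbx21), where 0.951% of all genes were, and 0 were lower, with a median log2 fold change of 0.06. DESeq2 called 5 higher and limma-voom 2, where 1.86% and 0.819% of all genes were higher, and 0 were lower in either. Of the 61, 10 had an unadjusted p under 0.05 in edgeR, 1 of them below 0. Of all 15142 genes tested 1211 had such a p. In the machinery of granule traffic and fusion, which holds Unc13d, Rab27a, Stx11 and Lyst, genes whose loss in humans or mice impairs granule release, 0 of 23 tested genes passed in edgeR, DESeq2 or limma-voom, and 2 had an unadjusted p under 0.05. Those were Sytl2, a Rab27 effector, at 29.0 ± 0.352 and 42.9 ± 7.47 CPM (SD, n = 3 each; edgeR adjusted p = 0.186), and Rab27a, which docks granules at the membrane, at 84.7 ± 18.8 and 120 ± 20.1 CPM (SD, n = 3 each; edgeR adjusted p = 0.459). Sytl2 lay at 34.3 CPM in combination replicate 1 and at 46.2 and 48.1 CPM in replicates 2 and 3, those with Dct and Tyrp1, whose part in this was not tested. The median of the list was 0.10.

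Among 12 tested genes of granule membrane, cargo sorting and serglycin sugar chains, 1 was higher (Chsy1) and 11 missed the threshold, and the list's median log2 fold change was 0.05. Chsy1, a chondroitin sulfate chain polymerase, averaged 57.1 ± 3.30 CPM in monotherapy and 96.9 ± 11.2 CPM in the combination (SD, n = 3 each). It rose by 0.76 ± 0.13 on the log2 scale (SE; edgeR adjusted p = 0.0283). The call was lost with library totals as the only scaling (edgeR adjusted p = 0.120), on leaving out monotherapy replicate 1, 2 or 3 (adjusted p = 0.206, 0.166 and 0.191) and on leaving out combination replicate 2 (adjusted p = 0.153). Chst11, which adds sulfate to such chains, was at 18.4 ± 3.71 and 31.4 ± 4.52 CPM and did not pass in edgeR (SD, n = 3 each; adjusted p = 0.113), though it did in DESeq2 (adjusted p = 0.0131). Calr, a chaperone that binds perforin, was at 500 ± 14.5 and 428 ± 22.3 CPM and did not pass.

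Of 10 tested genes that process or inhibit granule proteases, 1 was higher (Serpinb6b) and 9 missed the threshold, and the median log2 fold change was 0.16. Serpinb6b, an intracellular serpin, averaged 26.5 ± 3.15 CPM in monotherapy and 57.0 ± 15.0 CPM in the combination (SD, n = 3 each). It rose by 1.1 ± 0.20 on the log2 scale (SE; edgeR adjusted p = 0.0355). It has close relatives, among which reads may be split, and its call was lost in limma-voom (adjusted p = 0.0546), on leaving out monotherapy replicate 1, 2 or 3 (edgeR adjusted p = 0.126, 0.222 and 0.197), and without combination replicates 1 or 2 (edgeR adjusted p = 0.0548 and 0.153). Serpinb9, the inhibitor of granzyme B, was at 27.2 ± 5.03 and 38.7 ± 10.5 CPM, and Ctsc, the peptidase that activates granzymes, at 98.5 ± 14.9 and 124 ± 26.0 CPM (SD, n = 3 each). Neither passed (edgeR adjusted p = 0.585 and 0.766).

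Of 11 transcription factors that govern effector genes, 1 was higher (Tbx21) and 10 missed the threshold, and the median log2 fold change was 0.22. Tbx21, which encodes T-bet, had 7.94, 13.0 and 12.8 CPM in monotherapy replicates 1, 2 and 3, and 30.7, 32.5 and 35.7 CPM in combination replicates 1, 2 and 3. Unlike the granzymes it was highest in combination replicate 3 in TMM-scaled CPM. In TPM Gzmb too was highest there, at 14.5, 16.2 and 18.6 TPM in combination replicates 1, 2 and 3. The log2 fold change of Tbx21 was 1.55 ± 0.20 (SE; edgeR adjusted p = 0.00691), and it passed whichever library was left out. Eomes, a related factor, was at 120 ± 8.83 and 173 ± 20.8 CPM (SD, n = 3 each) and passed in DESeq2 (adjusted p = 0.0461) but not in edgeR (adjusted p = 0.189). Bhlhe40, a repressor linked to cytokine production, was at 13.1 ± 4.88 and 8.45 ± 1.99 CPM and did not pass (SD, n = 3 each; edgeR adjusted p = 0.603). Of 5 death ligands and cytokines, 0 passed in edgeR, DESeq2 or limma-voom, with a median of 0.00. At an unadjusted p under 0.05, where 1211 of all 15142 genes tested lay, there was 1 gene. That gene was Fasl, which kills by a route that does not need granules, at 1.28 ± 0.865 and 3.01 ± 0.580 CPM (SD, n = 3 each; edgeR adjusted p = 0.463).

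Natural killer cell markers were counted at low levels and moved with the granzymes in part. Summed over the 10 markers they came to 11.9 to 14.5 CPM in monotherapy and 18.9 to 30.5 CPM in the combination, without overlap. Of the 10, 9 had a log2 fold change above 0, against 7549 of all 15142 genes tested, and the list's median was 0.62. An unadjusted p under 0.05 was found in 3 of the 10, against 1211 of all genes. In edgeR 1 of the 10 passed, where 0.951% of all genes were higher. Klre1, a receptor gene also found on activated CD8+ T cells, rose, from 4.16 ± 0.748 to 13.1 ± 3.76 CPM (SD, n = 3 each), by 1.65 ± 0.25 on the log2 scale (SE; edgeR adjusted p = 0.0161). The Klre1 call was lost on leaving out monotherapy replicate 1, 2 or 3 (edgeR adjusted p = 0.0931, 0.0715 and 0.0974) or combination replicate 2 (edgeR adjusted p = 0.0743). Klra8, a Ly49 receptor gene with close copies, had 0.362, 0.483 and 0.579 CPM in monotherapy and 1.58, 1.66 and 0.855 CPM in the combination, without overlap. Its log2 fold change was 1.52 ± 0.45 in DESeq2, where it passed (SE; adjusted p = 0.036). In edgeR it was 1.52 ± 0.41 and did not pass (SE; adjusted p = 0.186). Fcgr3, an Fc receptor gene also found on myeloid cells, had 1.20, 0.483 and 0.796 CPM against 1.82, 1.93 and 1.4 CPM, without overlap, and did not pass (log2 fold change 1.06 ± 0.38, SE; edgeR adjusted p = 0.431). The defining marker Ncr1, with the only log2 fold change below 0 in this list (-0.16), was at 0.0508 to 0.362 CPM in monotherapy and 0.130 to 0.290 CPM in the combination, and Klrb1c at 1.65 to 2.34 and 1.89 to 3.43 CPM. Neither passed. Without Klre1 the list summed to 7.19 to 10 and 10.2 to 15.2 CPM, still without overlap. The part of these cells in the granzyme result was not tested.

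Other cell types with granules were scarce. Of 8 mast cell and basophil markers, Mcpt8 and Ms4a2 had 0 counts in all libraries and Cpa3 and Hdc were tested. The mast cell granule protease genes Mcpt4 and Cma1 were too low to test. Mcpt4 had 0, 1 and 1 counts in monotherapy and 5, 16 and 10 in combination replicates 1, 2 and 3, and Cma1 had 0, 1 and 0 against 0, 8 and 10. The list summed to 3.35 to 4.07 CPM in monotherapy and 2.88 to 4.28 CPM in the combination. The 9 myeloid markers summed to 9.35 to 23.5 and 12.5 to 14.4 CPM, the 5 gamma-delta T cell markers to 23.3 to 26.9 and 22.3 to 25 CPM, the 6 dendritic cell markers to 12.4 to 32.4 and 12.9 to 21.8 CPM, the 4 CD4 T cell markers to 6.43 to 12 and 4.10 to 8.20 CPM, and the 5 B cell markers to 33.6 to 47.2 and 23.5 to 51.6 CPM. In each of these lists the sums of the groups overlapped. Of the genes high enough to test, which were 2 of 8 mast cell, 4 of 9 myeloid, 4 of 6 dendritic cell and all gamma-delta, CD4 and B cell markers, 0 passed in edgeR, DESeq2 or limma-voom, with 0 at an unadjusted p under 0.05 in edgeR. The 8 genes of dividing cells all rose and summed to 139 to 157 CPM in monotherapy and 353 to 493 CPM in the combination. All 8 passed in edgeR (adjusted p at or below 0.0274), where 0.951% of all genes were higher. The sum was highest in combination replicate 3, as were Mki67, Top2a, Aurkb and Ube2c. In TMM-scaled CPM Birc5, Nusap1, Ccnb1 and Cdk1 were highest in combination replicate 1. In TPM these genes too were highest in combination replicate 3, with Birc5 at 16.4, 14.7 and 18.2 TPM in combination replicates 1, 2 and 3. Mki67 was at 88.7, 143 and 210 CPM in combination replicates 1, 2 and 3, and Birc5 at 25.3, 18.6 and 17.5 CPM. The part of dividing cells in the granzyme result was not tested.

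The profiles closest to each granzyme that rose were found by the mean absolute difference between log2 CPM profiles over the 6 libraries, each centred on its own mean. An average of 2 counts was added before taking these logs. For Gzmm these were S100a6, a calcium-binding protein, at 0.136, Ctla2b, a protease inhibitor-like gene, at 0.148, and Col8a2, a collagen chain counted at 0.0241 to 0.395 CPM, at 0.164, where the median over genes was 1.037. At such low counts the distance of Col8a2 depends on the added counts. Its edgeR log2 fold change was 3.65 ± 0.68 (SE), against 2.11 for Gzmm. For Gzmb they were Samd3 at 0.069 and the cell-cycle genes Ccnb1 and Cdk1 at 0.103 and 0.115, with a median of 0.811. For Gzma they were Klra6, a Ly49 receptor gene with close copies, at 0.080, the membrane-binding protein gene Anxa2 at 0.131 and the kinetochore gene Spc25 at 0.139, with a median of 0.748. Within the 8 genes Gzma and Gzmb differed by 0.17, Prf1 and Lamp1 by 0.09, and Gzmm and Prf1 by 1.01. These distances describe likeness over 6 libraries in 2 groups and carry no test.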

How the data were processed

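RNA was sequenced from 6 libraries of sorted CD8+ T cells, 3 per group, after Trizol extraction and oligo(dT) enrichment, per the labels' protocols. The authors deposited raw counts of reads per gene, made with STAR 2.5.2b, featureCounts and Subread 1.5.2, per the submitters' processing notes. For strand, multiply mapped reads, annotation and build the settings were not given in the sources used here. Gene coordinates in the files equalled those of GENCODE M21 (GRCm38) for 91.4% of 49056 shared genes. A further 6 columns of the series table could be tied to no sample and were left out.

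Groups and replicate numbers come from sample titles. Nothing in the labels gives a batch. The series' design text counts 3 mice per group. Counts of all genes were fitted in R 4.3.3 with edgeR 4.0.16 (filterByExpr by group, TMM, quasi-likelihood F-test), and p-values were adjusted over all 15142 genes kept. The SE is the log2 fold change divided by the square root of F, and intervals are 95%. DESeq2 1.42.0 and limma 3.58.1 (voom) were alternatives, with other scalings, count filters, left-out libraries and, chosen after seeing the data, a gene-length offset. TPM were computed from counts and the deposited gene lengths. The genes and lists were chosen with earlier results of these data known. All 8 granule genes are named. In the other lists, genes past the threshold are named and up to 3 with the smallest p; Ncr1, Klrb1c and the low mast cell and melanocyte markers were added after their values were seen. Also named are the 3 closest profiles to each granule gene past the threshold, clone-style names and receptor segments left out. Within-library ratios had 0.5 reads added to each count. Promoter sequences are from RefSeq (GRCm38.p6), with 8 of 8 genes matched.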

Additional observations from a re-analysis of the deposited data

How the results depend on the processing

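The number of granule genes that were higher, 3, was unchanged under the other scalings, filters and tools and with the gene-length offset. It was 2 to 4 when any single library was left out and 5 without combination replicates 2 and 3, where Nkg7 and Srgn also passed (edgeR adjusted p = 0.0337 and 0.00599). No granule gene was lower under any of the 16 alternatives run. The higher genes of the related lists, 3 in edgeR, numbered 5 in DESeq2, 5 without a count filter, 8 without combination replicates 2 and 3, and 1 to 5 when any single library was left out. The lower genes of these lists were 0, and 2 without combination replicates 2 and 3. The log2 difference of the Gzmb to Prf1 ratio, 1.58, ran from 1.44 to 1.68 when any single library was left out, that of Gzmm to Prf1, 2.03, from 1.77 to 2.31, and that of Gzma to Gzmk, 1.08, from 0.59 to 1.43. Over all genes, 144 higher and 20 lower in edgeR became 282 and 72 in DESeq2, 340 and 113 without a count filter, 834 and 628 without combination replicates 2 and 3, and 32 to 233 and 2 to 49 when any single library was left out. The cause of these shifts was not tested. With the replicate number as a block, 3 granule genes and 4 related genes were higher, 231 of all genes were higher and 57 lower, and the ratio differences were 1.58, 2.03 and 1.08. Same-numbered libraries had correlations of their deviations of 0.145, -0.0551 and 0.279, so the numbers are not taken to pair the mice, and not every library correlated best with its own number. The low counts of Gzmk, 35 to 128 per library, limit what could be seen of it.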
